A study of Mus musculus with 24 samples.

Results

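The fibroblast growth factor (FGF) genes examined here were 6 ligands (Fgf1, Fgf2, Fgf7, Fgf9, Fgf10 and Fgf18) and 4 receptors (Fgfr1, Fgfr2, Fgfr3 and Fgfrl1), followed through articular and growth plate cartilage of the mouse under hydrostatic pressure. The genes were chosen by symbol, and all 10 were found among the 52178 rows of the count matrix, each as a single protein-coding gene. Fgf2 lies on chromosome 3, Fgf7 on 2, Fgf9 on 14, Fgf10 on 13, Fgf18 on 11 and Fgf1 on 18. Fgfr1 lies on chromosome 8, Fgfr2 on 7, and Fgfr3 and Fgfrl1 both on chromosome 5.

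FGF ligands bind tyrosine kinase receptors together with heparan sulfate, and the activated receptor signals through adaptor proteins to intracellular kinase cascades. FGFR3 slows the proliferation of growth plate chondrocytes, and activating mutations of its gene cause achondroplasia, whereas FGF18 and FGF9 are ligands that act on cartilage from the surrounding perichondrium and mesenchyme. FGFRL1 binds FGF ligands and heparan sulfate but lacks the kinase domain, and FGF2 is stored in the pericellular matrix of articular cartilage.

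Hip caps, the cartilage caps of the femoral head, came from male C57/BL6J mice of 4 weeks, with 2 caps in each culture. Metatarsals came from C57/BL6J embryos at embryonic day 15, with 6 bones in each culture and the sex not given. The labels name the strain C57/BL6 and the study's methods C57/BL6J. Both were cultured for 24 hours, kept at 0 MPa (control) or exposed to 5 MPa or 50 MPa for 1 hour, and cultured for another 24 hours, and the labels give no genetic change or drug for any group. The tissues also differed in age and in culture medium, and these differences cannot be told apart from the tissue itself. Each of the 6 groups had 4 libraries of ribosome-depleted total RNA, and the study left out hip cap control replicate 4 and hip cap 50 MPa replicate 2 as outliers, so 22 libraries are used below, with 3 in each of those 2 groups. The study's methods report RNA integrity below the ideal minimum in all samples and take it as a sign of some partial degradation. Ribosomal depletion was used for that reason, and the part of RNA quality in the values below was not tested. Nothing in the labels ties a library to a litter or day, so the p-values measure the spread between these cultures.

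Total counts ran from 4185557 to 25104484 per library, protein-coding genes took 27.5% to 72.4% of them, and genes without a symbol took 16.9% to 65.6%. Levels are given as CPM, the counts scaled by the library size after TMM scaling to a fixed total, and differences as log2 fold changes with their standard error (SE) from edgeR's quasi-likelihood test over all 21283 genes that passed the filter on low counts, which all 10 FGF genes passed. Adjusted p-values are from that test with the Benjamini-Hochberg method, and a gene was called at an adjusted p of at most 0.05.

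The tissues were checked against marker genes. All 10 chondrocyte markers were higher in hip caps at each pressure, with a summed level of 22173 to 77709 CPM in hip caps and 1879 to 4998 CPM in metatarsals. All 4 markers of hypertrophic chondrocytes were higher in hip caps too, at 4502 to 13889 CPM against 21.98 to 89.6 CPM, and Col10a1 fell to 0.191 CPM in one metatarsal library. All 8 markers of fibrous mesenchyme were lower in hip caps at each pressure (193 to 696 CPM against 2462 to 3610 CPM). Of the 10 skeletal muscle markers, 10, 9 and 8 were lower at 0, 5 and 50 MPa (10.3 to 46.1 CPM against 465 to 2578 CPM), and Actc1, Myog, Tnnt1, Des and Myl1 were at 0 in at least 1 hip cap library. Of the 5 osteoblast markers 4 were higher in hip caps at each pressure, and 1 was lower at 0 and 50 MPa. Their summed level overlapped between the tissues (1297 to 6538 CPM against 2275 to 4481 CPM). Of the 4 osteoclast markers 1, 4 and 4 were higher in hip caps at 0, 5 and 50 MPa. Keratinocyte markers summed to 317 CPM in 1 metatarsal control, against a group median of 4.08 CPM. The part of these markers in the FGF differences was not tested, and in whole-tissue RNA fewer cells of a type cannot be told apart from less RNA per cell.

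Between the tissues, 8 of the 10 FGF genes differed at each pressure. In controls 4 were higher and 4 lower in hip caps, where 29.9% of all tested genes were called (14.1% higher and 15.9% lower). At 5 MPa 4 were again higher and 4 lower, with 37.9% of all genes called (18.8% higher and 19.1% lower). At 50 MPa 4 were higher and 4 lower, with 19.7% of all genes called (10.2% higher and 9.57% lower). The groups did not overlap for 8 of the 10 at each pressure, a pattern that 42.4%, 40.8% and 39.8% of all genes showed at 0, 5 and 50 MPa. The median log2 fold change of the 10 genes was −0.46, 0.23 and 0.04, against −0.08, −0.08 and −0.01 over all genes. In hip caps the genes higher than in metatarsals were Fgfr1, Fgfr3, Fgfrl1 and Fgf1, and the lower ones were Fgf9, Fgf10 and Fgf18 at each pressure, with Fgf2 at 0 and 5 MPa and Fgfr2 at 50 MPa. The count at 50 MPa fell to 2 without metatarsal 50 MPa replicate 4, the only library of its tissue and pressure that shares the sequencing run and library type of the hip caps there, and to 2 with all 24 libraries. Over all genes the number called at 50 MPa also varied, from 1058 to 4700 in the fits that left out 1 library. In controls, all hip cap libraries used were from the first sequencing run, and of the metatarsals only replicate 1 was. Run and tissue are therefore hard to tell apart in controls.

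**Figure D1:**
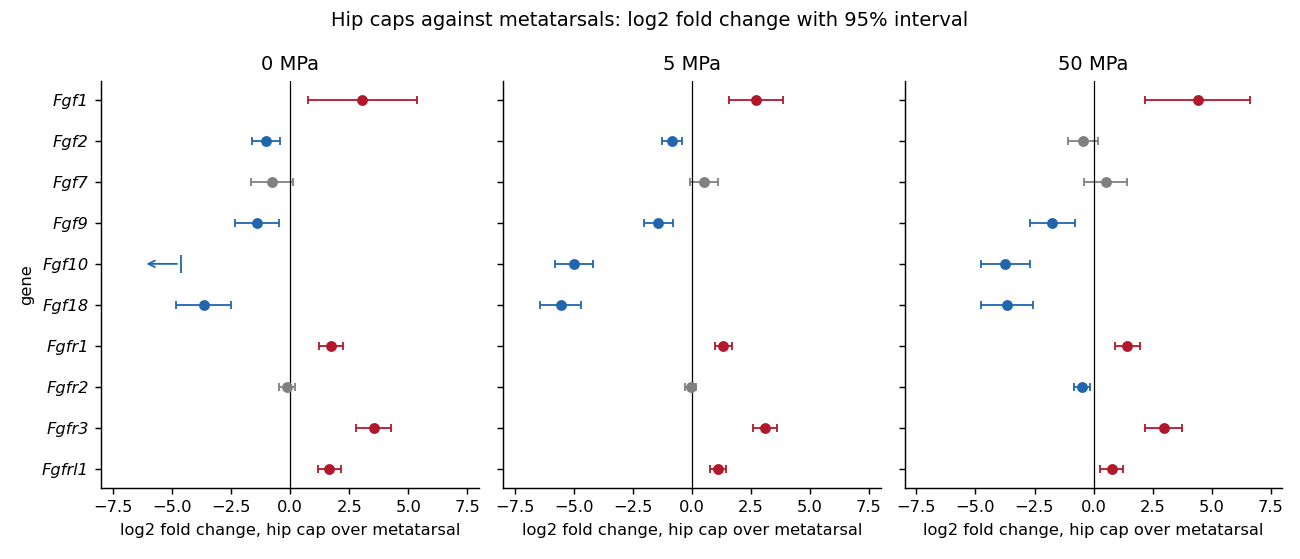
Log2 fold change of each FGF gene, hip cap over metatarsal, at 0, 5 and 50 MPa, with points for the edgeR estimate and bars for its 95% interval. Red marks genes called higher in hip caps, blue those called lower and grey the rest, and the arrow for Fgf10 at 0 MPa starts at its bound of at least 24.96-fold lower because all 3 hip cap controls had 0 counts. Fgfr3, Fgfr1, Fgfrl1 and Fgf1 lie to the right of 0 in every panel, and Fgf10 and Fgf18 lie furthest to the left.

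Fgf10 and Fgf18 were the ligands with the largest differences between the tissues at 0 and 5 MPa. Fgf10 encodes a mesenchymal ligand known for limb bud outgrowth, which it drives through the epithelial form of FGFR2. In metatarsals Fgf10 was at 13.0, 11.6, 14.4 and 13.4 CPM in controls, at 12.7, 14.0, 14.7 and 12.3 CPM at 5 MPa and at 12.9, 11.9, 15.5 and 14.8 CPM at 50 MPa. In hip caps it had 0 counts in all 3 controls, stood at 0.773, 0.421, 0.154 and 0.341 CPM at 5 MPa, and at 0.632, 1.87 and 0 CPM at 50 MPa. Every metatarsal library was far above every hip cap library, and the metatarsal values lay close together (coefficient of variation 9.21%, n = 12). Against a floor of 3 counts per library, which corresponds to 0.525 CPM, Fgf10 was at least 24.96-fold lower in hip cap controls (adjusted p = 2.6e-07). The log2 fold change was −5.00 (SE 0.38, adjusted p = 4.5e-09) at 5 MPa and −3.73 (SE 0.49, adjusted p = 2.0e-05) at 50 MPa.

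Fgf18, a ligand required for normal chondrocyte proliferation and bone growth, was the second of this pair. Metatarsals held 4.78, 6.52, 4.40 and 5.47 CPM in controls, 7.13, 9.28, 5.94 and 5.52 CPM at 5 MPa and 4.69, 5.87, 6.06 and 6.01 CPM at 50 MPa. Hip caps held 1.09, 0.159 and 0.285 CPM in controls, 0.238, 0.0702, 0.0515 and 0.195 CPM at 5 MPa and 0.211, 0.623 and 0.309 CPM at 50 MPa, which rest on 1 to 9 counts per library. The highest hip cap library was well below the lowest metatarsal library. Its log2 fold change was −3.66 (SE 0.56, adjusted p = 4.4e-05) in controls, −5.55 (SE 0.42, adjusted p = 1.2e-09) at 5 MPa and −3.67 (SE 0.53, adjusted p = 3.4e-05) at 50 MPa. Both ligands were lower in hip caps under every scaling tried, at all 3 pressures, but at 50 MPa neither was called without metatarsal 50 MPa replicate 4, where the adjusted p of Fgf18 was 0.268 and that of Fgf10 was close to 1. Neither was called at 50 MPa with all 24 libraries (Fgf10 −2.31, adjusted p = 0.0813, and Fgf18 −2.45, adjusted p = 0.0937).

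The promoters of these ligands, which moved together between the tissues, are shown as the 250 bases before the RefSeq start (build GRCm38.p6, 5′ to 3′ on the strand of the gene). Capitals mark GGGCGG or its complement CCGCCC, the core letters of a GC box, searched on both strands with overlaps counted.
Fgf10, chr13:118714449-118714698, plus strand: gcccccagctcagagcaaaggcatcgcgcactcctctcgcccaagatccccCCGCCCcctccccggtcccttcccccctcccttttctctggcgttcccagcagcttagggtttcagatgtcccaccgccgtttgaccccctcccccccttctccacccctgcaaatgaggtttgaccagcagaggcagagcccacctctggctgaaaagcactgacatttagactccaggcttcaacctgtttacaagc
Fgf18, chr11:33147401-33147650, minus strand: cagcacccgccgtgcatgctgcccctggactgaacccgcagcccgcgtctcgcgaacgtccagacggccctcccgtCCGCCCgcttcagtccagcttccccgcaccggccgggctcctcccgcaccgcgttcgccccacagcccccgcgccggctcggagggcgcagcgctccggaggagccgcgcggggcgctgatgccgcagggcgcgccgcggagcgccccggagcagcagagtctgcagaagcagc
Each window held the motif once, and 32.7% of 32851 RefSeq promoters of this length held it at least once. The GC content was 61.2% for Fgf10 and 77.2% for Fgf18, against a median of 52.4% and quartiles of 45.2% and 61.2% over all promoters. TATAAA, the TATA box letters found in 12.4% of promoters, and AACAAT, a core of SOX binding sites found in 9.42%, were not in either window. These matches describe letters only.

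Fgf9, a ligand of FGFR3 in the limb skeleton, was also lower in hip caps, by less. Hip caps held 4.34, 1.91 and 0.761 CPM in controls, 2.02, 2.18, 1.90 and 1.27 CPM at 5 MPa and 0.737, 1.32 and 0.309 CPM at 50 MPa. Metatarsals held 4.97, 4.81, 6.39 and 5.70 CPM in controls, 4.89, 4.21, 5.06 and 5.47 CPM at 5 MPa and 5.41, 4.27, 4.68 and 3.88 CPM at 50 MPa. The groups did not overlap at any pressure, although the first hip cap control came close to the metatarsal controls. The fitted log2 fold change was −1.40 (SE 0.45, adjusted p = 0.0229), −1.42 (SE 0.29, adjusted p = 0.000559) and −1.75 (SE 0.46, adjusted p = 0.00977) at 0, 5 and 50 MPa. The call in controls was lost without hip cap control replicate 2 or 3 or metatarsal 50 MPa replicate 4, with an adjusted p of up to 0.332, and the call at 50 MPa without the last of these (adjusted p = 0.924). With all 24 libraries the gene was no longer called at any pressure, and the estimate at 50 MPa turned to 1.53 (adjusted p = 0.423), as the library left out there held 194 counts of Fgf9.

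Fgf2, the matrix-bound ligand, was at 15.7, 19.2 and 14.7 CPM in hip cap controls and at 38.4, 33.1, 32.4 and 28.6 CPM in metatarsal controls. At 5 MPa hip caps held 23.8, 24.3, 13.6 and 18.4 CPM and metatarsals 34.5, 42.2, 34.7 and 31.3 CPM. At 50 MPa hip caps held 20.1, 29.1 and 11.1 CPM and metatarsals 34.8, 30.3, 31.0 and 26.8 CPM. Hip caps were lower without overlap at 0 and 5 MPa, while at 50 MPa the second of the 3 hip cap libraries reached into the metatarsal range. On the log2 scale the fold change was −1.02 (SE 0.28, adjusted p = 0.0101) in controls, −0.84 (SE 0.20, adjusted p = 0.0023) at 5 MPa and −0.43 (SE 0.30, adjusted p = 0.365) at 50 MPa, and the first call was lost without metatarsal control replicate 1 (adjusted p = 0.314). Fgf2 overlaps Nudt6 on the opposite strand, which had 1 to 49 counts per library, and in the 6 unstranded libraries reads of the overlap cannot be assigned by strand. Fgf10, Fgfr1 and Fgfr3 overlap predicted antisense genes in the same way.

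Fgf1, which binds all FGF receptors, was the only ligand called higher in hip caps. Its levels in hip caps were 1.09, 3.02 and 5.52 CPM in controls, 5.17, 2.67, 2.98 and 2.93 CPM at 5 MPa and 4.63, 3.81 and 5.25 CPM at 50 MPa. In metatarsals they were 0.191, 2.30, 0.400 and 0.0771 CPM in controls, 0.897, 0.270, 0.588 and 0.297 CPM at 5 MPa and 0.330, 0.222, 0.300 and 0.228 CPM at 50 MPa. The control groups overlapped, as one metatarsal control was above one hip cap control, and the groups at 5 and 50 MPa did not. The log2 fold change was 3.06 (SE 1.10, adjusted p = 0.0410) in controls, 2.72 (SE 0.56, adjusted p = 0.00053) at 5 MPa and 4.41 (SE 1.06, adjusted p = 0.00485) at 50 MPa. The control call was lost in 7 of the 22 fits that left out a library (adjusted p up to 0.281), and the call at 50 MPa was lost without metatarsal 50 MPa replicate 4 (adjusted p = 0.193). The control call was also lost with library type only (1.59, adjusted p = 0.0908), with library sizes alone (adjusted p = 0.0792) and with no filter (adjusted p = 0.0533).

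Fgf7, a mesenchymal ligand of epithelial FGFR2, was not called between the tissues. In controls hip caps held 5.70, 10.0 and 5.71 CPM and metatarsals 13.4, 11.9, 10.3 and 9.63 CPM. At 5 MPa hip caps held 14.2, 12.3, 31.6 and 11.8 CPM and metatarsals 11.9, 16.1, 9.64 and 11.4 CPM. At 50 MPa hip caps held 17.1, 18.4 and 8.34 CPM and metatarsals 10.3, 9.60, 13.3 and 10.8 CPM. Groups overlapped at every pressure, with hip cap 5 MPa replicate 3 far above the rest. Its log2 fold change was −0.78 (95% interval −1.68 to 0.11) in controls, 0.51 (−0.07 to 1.10) at 5 MPa and 0.51 (−0.41 to 1.43) at 50 MPa, with adjusted p of 0.182, 0.159 and 0.478. These estimates changed sign with library sizes alone at 5 and 50 MPa, and with all 24 libraries in controls.

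**Figure D2:**
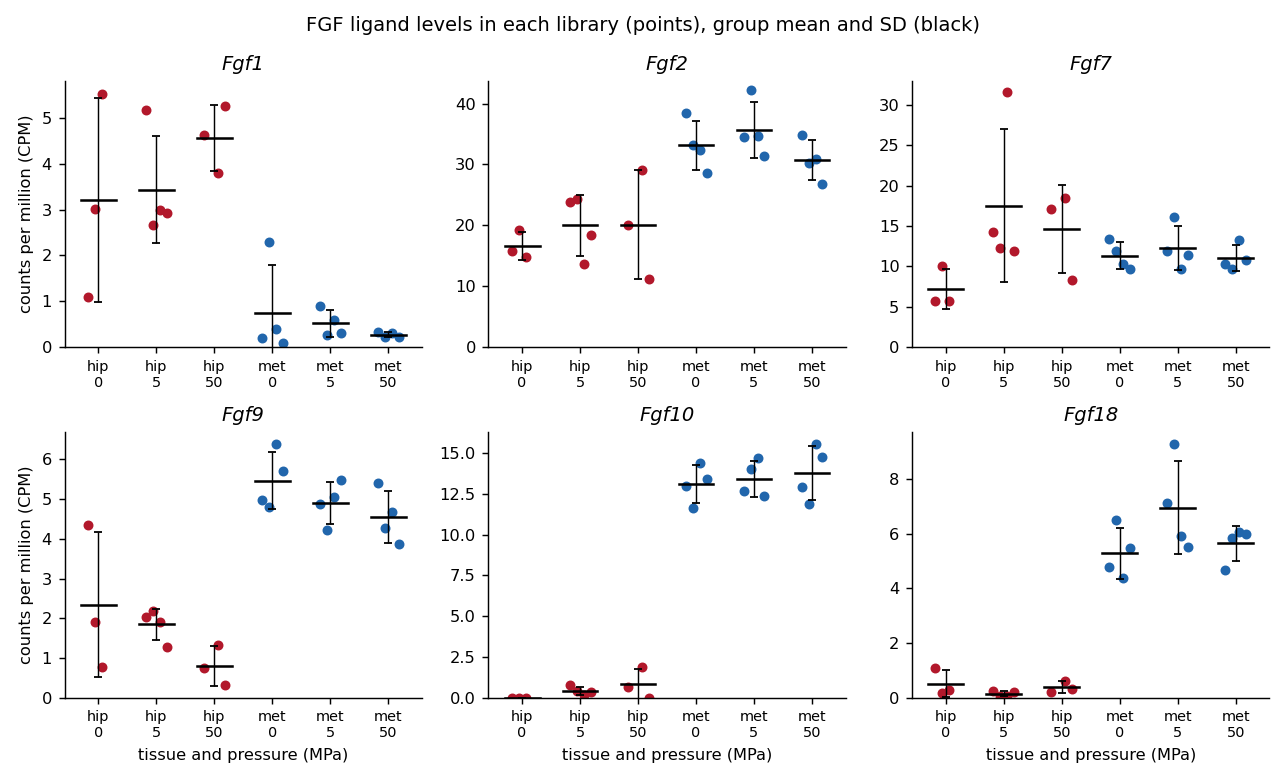
CPM of the 6 ligands in each of the 22 libraries, with hip caps in red and metatarsals in blue, at 0, 5 and 50 MPa, and black bars for the group mean and SD. Fgf10 is at 11.6 CPM or more in every metatarsal library and at 1.87 CPM or less in every hip cap library, while for Fgf7 the tissues overlap and one hip cap library at 5 MPa stands at 31.6 CPM.

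Among the receptors, Fgfr3 differed most between the tissues. Hip caps held 471, 364 and 503.45 CPM in controls, 296, 342, 163 and 368 CPM at 5 MPa and 288, 261 and 314 CPM at 50 MPa. Metatarsals held 34.0, 34.7, 59.8 and 32.8 CPM in controls, 31.9, 33.5, 29.4 and 41.5 CPM at 5 MPa and 41.2, 33.2, 26.2 and 38.2 CPM at 50 MPa. The lowest hip cap library was above the highest metatarsal library, and both of these stood apart from the rest of their groups. The fitted log2 fold change was 3.53 (SE 0.36, adjusted p = 2.7e-07) in controls, 3.10 (SE 0.24, adjusted p = 2.1e-09) at 5 MPa and 2.97 (SE 0.37, adjusted p = 5.6e-06) at 50 MPa. The gene was called higher at all 3 pressures in every fit that left out a library.

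Fgfr1, which encodes the receptor of much of the mesenchyme and of hypertrophic chondrocytes, was also higher in hip caps. Hip caps held 783, 564 and 736 CPM in controls, 549, 580.5, 458 and 629.9 CPM at 5 MPa and 511, 479 and 857 CPM at 50 MPa. Metatarsals held 190.2, 247, 226 and 226 CPM in controls, 214, 239, 228 and 196 CPM at 5 MPa and 234, 207, 217 and 240.0 CPM at 50 MPa. The groups did not overlap, and the metatarsal libraries lay within a narrow range (coefficient of variation 7.99%, n = 12, against 21.9%, n = 10, in hip caps). On the log2 scale the fold change was 1.72 (SE 0.25, adjusted p = 2.2e-05), 1.34 (SE 0.17, adjusted p = 1.9e-06) and 1.43 (SE 0.26, adjusted p = 0.000359) at 0, 5 and 50 MPa, and at 50 MPa the call was lost with library sizes alone and with all 24 libraries.

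Fgfrl1, the receptor without a kinase domain, was at 90.4, 64.5 and 111 CPM in hip cap controls, at 58.2, 70.7, 37.5 and 68.2 CPM at 5 MPa and at 63.7, 62.4 and 55.9 CPM at 50 MPa. In metatarsals it was at 24.3, 26.8, 29.2 and 31.6 CPM, at 25.9, 29.0, 25.7 and 28.0 CPM and at 33.9, 28.5, 25.5 and 36.0 CPM in the same order. Hip caps were higher without overlap at each pressure. The log2 fold change was 1.65 (SE 0.23, adjusted p = 1.8e-05) in controls, 1.11 (SE 0.16, adjusted p = 8.7e-06) at 5 MPa and 0.76 (SE 0.24, adjusted p = 0.0282) at 50 MPa. The last value turned to −0.15 with library sizes alone, where the median of all genes moved by −0.89, and its call was lost without hip cap control replicate 3, hip cap 50 MPa replicate 1 or 3, metatarsal control replicate 1 or metatarsal 50 MPa replicate 4 (adjusted p up to 0.377). The call in controls was lost with library sizes alone too (0.74, adjusted p = 0.110).

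Promoters of the pair of receptors on chromosome 5 that were higher in hip caps are printed in the same way, with both RefSeq starts of Fgfr3.
Fgfr3, first start, chr5:33721474-33721723, plus strand: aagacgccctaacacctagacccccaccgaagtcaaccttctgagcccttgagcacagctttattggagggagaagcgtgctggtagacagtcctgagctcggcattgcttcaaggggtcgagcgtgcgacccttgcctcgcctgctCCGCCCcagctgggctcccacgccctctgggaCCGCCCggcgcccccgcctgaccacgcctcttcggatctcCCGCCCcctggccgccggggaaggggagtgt
Fgfr3, second start, chr5:33722056-33722305, plus strand: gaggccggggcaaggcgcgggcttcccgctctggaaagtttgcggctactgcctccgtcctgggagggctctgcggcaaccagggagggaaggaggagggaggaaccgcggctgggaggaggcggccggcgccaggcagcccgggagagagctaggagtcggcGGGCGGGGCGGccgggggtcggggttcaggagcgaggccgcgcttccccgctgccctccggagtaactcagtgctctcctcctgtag
Fgfrl1, chr5:108693979-108694228, plus strand: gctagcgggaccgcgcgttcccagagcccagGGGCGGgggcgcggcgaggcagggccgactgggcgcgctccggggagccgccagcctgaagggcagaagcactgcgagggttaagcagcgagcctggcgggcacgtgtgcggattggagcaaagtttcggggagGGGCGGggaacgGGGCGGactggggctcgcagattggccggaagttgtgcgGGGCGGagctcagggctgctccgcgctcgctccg
The motif in capitals occurred 3 times and 2 times in the Fgfr3 windows, where the second holds an overlapping pair, and 4 times in the Fgfrl1 window. GC content was 66.8% and 72.8% for Fgfr3 and 73.6% for Fgfrl1. The Fgf2 window held the motif once, and the windows of Fgf7, Fgf9 and Fgfr2, with a GC content of 43.6%, 44.8% and 44.0%, did not hold it. TATAAA and AACAAT were in none of the 9 windows found for 8 of the 10 genes.

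Fgfr2, the receptor expressed in perichondrium and osteoprogenitors, had the smallest fitted differences between the tissues at 0 and 5 MPa. Hip caps held 136, 145 and 135 CPM in controls, 169, 169, 153 and 145 CPM at 5 MPa and 114, 102 and 131 CPM at 50 MPa. Metatarsals held 147, 154, 187 and 175 CPM in controls, 169, 159, 167 and 167 CPM at 5 MPa and 184, 191, 154 and 168 CPM at 50 MPa. Hip caps were lower without overlap at 0 and 50 MPa, and the groups overlapped at 5 MPa. Its log2 fold change was −0.15 (95% interval −0.48 to 0.19, adjusted p = 0.533) in controls and −0.06 (−0.30 to 0.18, adjusted p = 0.729) at 5 MPa. At 50 MPa it was −0.49 (SE 0.17, adjusted p = 0.0433), a call that was lost in 7 of the 22 fits that left out a library (adjusted p up to 0.518) and, with the replicate number as a block, at an adjusted p of 0.0774. An exon of Fgfr2 overlaps Ctbp2, which had 51 to 732 counts per library.

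**Figure D3:**
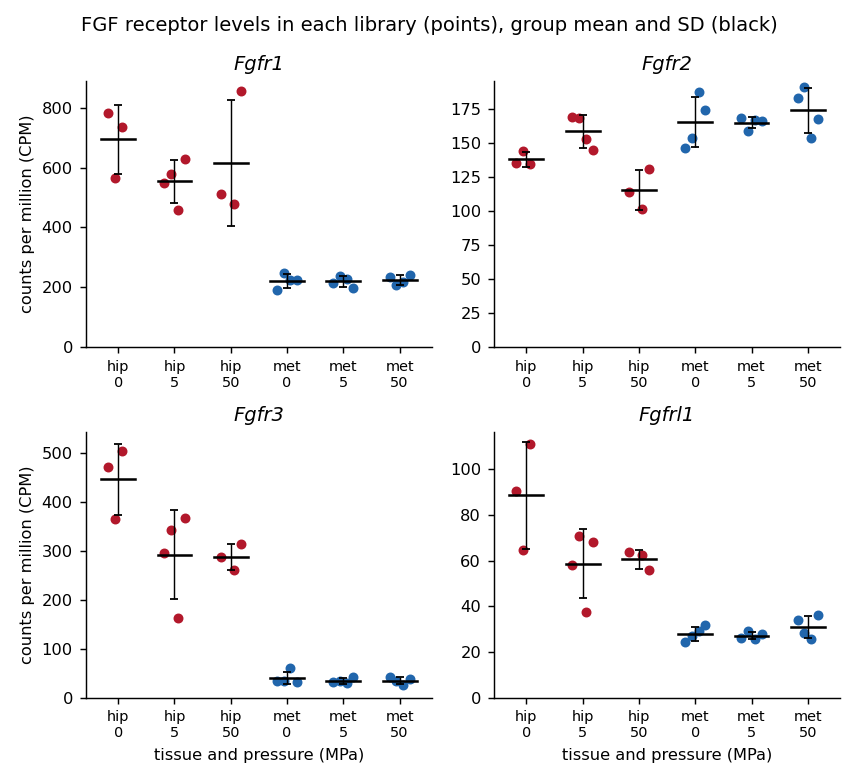
CPM of the 4 receptors in each of the 22 libraries, with hip caps in red and metatarsals in blue, at 0, 5 and 50 MPa, and black bars for the group mean and SD. Fgfr3 lies between 163 and 503.45 CPM in hip caps and between 26.2 and 59.8 CPM in metatarsals, while Fgfr2 lies between 102 and 191 CPM over both tissues.

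The receptors were then compared with each other per length. On the scale of mean CPM per kilobase of the median annotated transcript, the order in hip caps was Fgfr1 (162), Fgfr3 (128), Fgfr2 (60.9) and Fgfrl1 (49.5). In metatarsals it was Fgfr2 (73.3), Fgfr1 (58.6), Fgfrl1 (20.8) and Fgfr3 (13.8). With the longest transcript as the length the hip cap order was the same, at 122, 79.4, 32.4 and 29.3, while in metatarsals Fgfr1 (44.0) came before Fgfr2 (39.1). Of the summed level of the 4 receptors per kilobase of median transcript, Fgfr3 made up 31.5% ± 4.19 (SD, n = 10) in hip caps and 8.26% ± 1.56 (SD, n = 12) in metatarsals. Fgfr2 made up 15.7% ± 3.96 in hip caps and 44.0% ± 2.15 in metatarsals. The shares of Fgfr1 (40.5% ± 4.16 and 35.2% ± 2.45) and Fgfrl1 (12.3% ± 1.92 and 12.5% ± 0.993) lay closer together. Over all hip caps the Fgfr2 share, at 11.2% to 24.1%, overlapped that of Fgfrl1, at 9.16% to 15.4%, and their order varied with the group. The mean shares of Fgfr2 and Fgfrl1 were 12.9% and 13.3% in controls and 13.9% and 12.4% at 50 MPa. At 5 MPa the 2 shares did not overlap (15.1% to 24.1% and 9.83% to 12.6%).

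A ratio within a library does not depend on scaling between libraries, so log2 of Fgfr3 over Fgfr1 counts was also compared. Hip cap controls stood at −0.73, −0.63 and −0.55, and metatarsal controls at −2.48, −2.83, −1.92 and −2.78. At 5 MPa the hip caps stood at −0.89, −0.76, −1.49 and −0.78, and the metatarsals at −2.75, −2.83, −2.95 and −2.24. At 50 MPa the hip caps stood at −0.83, −0.88 and −1.45, and the metatarsals at −2.50, −2.64, −3.04 and −2.65. Every hip cap library was above every metatarsal library. The difference of the means was 1.86, 1.71 and 1.66 on the log2 scale at 0, 5 and 50 MPa, with two-sided exact permutation p of 0.0571, 0.0286 and 0.0571, each the smallest that the group sizes allow, and an adjusted p of 0.0571 over the 3 pressures. Of the libraries left out, hip cap control replicate 4 stood at −2.25, within the range of the metatarsals, and hip cap 50 MPa replicate 2 at −0.48.

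**Figure D4:**
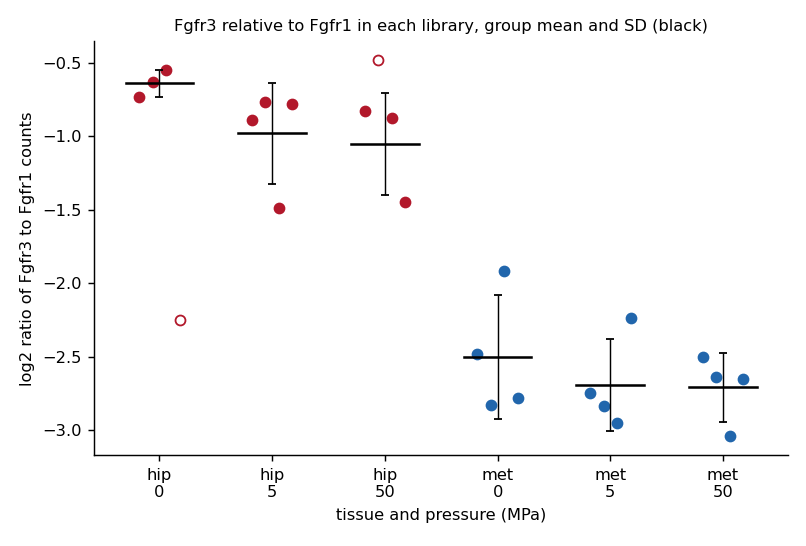
Log2 ratio of Fgfr3 to Fgfr1 counts in each library, with hip caps in red, metatarsals in blue, open circles for the 2 libraries left out and black bars for the mean and SD of the libraries used. The used hip cap libraries lie between −1.49 and −0.55 and the metatarsal libraries between −3.04 and −1.92, and the open circle at −2.25 is hip cap control replicate 4.

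In hip caps, 5 MPa against control called none of the 10 FGF genes, where 0.0188% of all genes were called. At an unadjusted p under 0.05 stood 3 of the 10, against 14.8% of all genes, and DESeq2 called 1, Fgf7. All 4 libraries at 5 MPa were from the second sequencing run and all 3 controls used from the first, so run and pressure cannot be told apart within hip caps and the run term rests on metatarsals. Without batch terms 3 were called (Fgf7, Fgf10 and Fgfrl1, with adjusted p of 0.0214, 0.0333 and 0.0458), and with library type only 2 (Fgf7 and Fgf10). The share of 0.0188% belongs to the main fit. The shares of all genes called by DESeq2 and in these 2 fits are not given here, so their counts cannot be set against it. Fgf7 was above all 3 controls in each of the 4 libraries at 5 MPa (log2 fold change 1.51, SE 0.48, adjusted p = 0.178), and its highest library was the one at 31.6 CPM. The control left out by the study held more Fgf7 than any of them, and with all 24 libraries the value turned to −0.43 (adjusted p = 0.725). Fgfrl1 was at −0.64 (SE 0.26, adjusted p = 0.255) with overlapping groups. Fgf10 was detected at 3 to 13 counts in all 4 libraries at 5 MPa and at 0 counts in the 3 controls (adjusted p = 0.171), and its mean of 0.422 CPM at 5 MPa was under 0.525 CPM, the level that 3 counts per library stand for in the controls, so no fold is given. Fgf7, Fgf10 and Fgfr2 were higher without overlap, 3 of 10 where 16.2% of all genes had no overlap and 8.4% were higher without it. For Fgfr2 the lowest library at 5 MPa stood at 144.8 CPM and the highest control at 144.6 CPM. Its fitted log2 fold change was 0.05 (adjusted p = 0.936). Hip cap 5 MPa replicate 3, which held the highest Fgf7 and the lowest Fgfr3 and Fgfrl1 of its group, also had the lowest summed chondrocyte markers of the group (22173 CPM, against 52991 CPM in the highest) and the highest summed fibrous markers (696 CPM, against 193 CPM in the lowest). It was the highest of the group for osteoblast (6538 CPM, against 1551 CPM in the lowest), macrophage (672 against 109 CPM), osteoclast (688 against 223 CPM) and endothelial markers (236 against 53.9 CPM) as well, and the part of these in its values was not tested.

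At 50 MPa against control in hip caps 2 of the 10 genes were called, Fgf10 higher and Fgfrl1 lower, where 5.17% of all genes were called (3.32% higher and 1.86% lower). The median log2 fold change of the 10 was −0.30, against 0.02 over all genes. Fgfrl1 was lower in all 3 libraries at 50 MPa (55.9 to 63.7 CPM) than in any control (64.5 to 111 CPM), by a narrow gap, with a log2 fold change of −0.88 (SE 0.23, adjusted p = 0.0331). Fgf10 had 6, 27 and 0 counts at 50 MPa against 0 in each control, so the groups overlapped at 0, and its mean was at least 1.59-fold higher than the floor of 3 counts per library (adjusted p = 0.0204). The control left out by the study held 12 counts of Fgf10.

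Neither call was stable over the libraries, and the number of calls over all genes was not stable either. In this comparison 1 to 2437 of all genes were called in the fits that left out 1 library, against 1101 in the main fit. The Fgf10 and Fgfrl1 calls were both lost without any 1 of hip cap control replicate 3, hip cap 50 MPa replicate 3, metatarsal control replicate 1 or metatarsal 50 MPa replicate 4, with an adjusted p of up to 0.266 for Fgf10 and 0.396 for Fgfrl1. Both were also lost with all 24 libraries and with library sizes alone, and in a fit of each tissue alone Fgfrl1 had an adjusted p of 0.434 while Fgf10 was not tested. All hip cap libraries at 50 MPa were unstranded and from the first sequencing run, whereas 2 of the 3 controls were stranded, so the comparison within one library type holds 1 control, and the terms for run and type rest on a few libraries. Without those terms Fgfrl1 stood at −0.55 (adjusted p = 0.119). Summed fibrous markers were 303 to 696 CPM at 50 MPa and 194 to 367 CPM in controls, summed muscle markers 27.9 to 46.1 CPM and 10.3 to 16.0 CPM, and summed chondrocyte markers 32891 to 37407 CPM and 49092 to 77709 CPM. Summed osteoclast markers were 232 to 782 CPM at 50 MPa and 128 to 228 CPM in controls. Of these lists 1 of 8, 1 of 10, 2 of 10 and 0 of 4 genes were called, the chondrocyte genes lower, and their part in the FGF values was not tested.

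The other values at 50 MPa did not pass the test. Fgf7 had a log2 fold change of 1.37 (SE 0.47, adjusted p = 0.0876), with 1 library of 3 within the control range, and it was called without hip cap 5 MPa replicate 3 or hip cap 50 MPa replicate 4 and by DESeq2. With all 24 libraries, which include the control at 49.4 CPM on that scale, its value was 0.08 (adjusted p = 0.968). Fgfr3 was below all controls in each library, at −0.86 (SE 0.32, adjusted p = 0.117), as was Fgfr2, at −0.27 (SE 0.17, adjusted p = 0.360). With Fgfrl1 these were 3 of 10 genes lower without overlap, where 15.8% of all genes had no overlap and 7.56% were lower without it. At an unadjusted p under 0.05 stood 4 of 10, against 22.6% of all genes. For Fgfr1 the value was −0.33 (95% interval −0.85 to 0.18), for Fgf2 0.57 (−0.08 to 1.22), for Fgf9 −0.37 (−1.52 to 0.79), for Fgf1 −0.35 (−1.98 to 1.28) and for Fgf18 0.09 (−1.40 to 1.59). Between 50 and 5 MPa none of the 10 genes was called, as for 0% of all genes (1018 or 4.78% at an unadjusted p under 0.05, and 40 by DESeq2, none of them a member). Only Fgf18 had an unadjusted p under 0.05 (log2 fold change 1.59, SE 0.74, adjusted p = 0.981), and only Fgfr2 had no overlap, lower at 50 MPa (−0.32, SE 0.20, adjusted p = 0.981), against 13.2% of all genes. The hip caps used at 50 MPa were all unstranded and from the first run, and those at 5 MPa all stranded and from the second. Run and library type thus cannot be told apart from pressure within hip caps in this comparison.

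In metatarsals no FGF gene was called at either pressure. At 5 MPa against control the values ran from −0.87 for Fgf1 to 0.39 for Fgf18, and 0% of all genes were called (689 or 3.24% at an unadjusted p under 0.05, none of them a member, and 13 by DESeq2, none of them a member). At 50 MPa against control 0% of all genes were called as well (828 or 3.89% at an unadjusted p under 0.05 and 9 by DESeq2), and the only member at an unadjusted p under 0.05 was Fgf1, at −1.70 (SE 0.70, adjusted p = 1). That value rests on 3 to 5 counts per library at 50 MPa and on a control group with one library at 43 counts. For the 4 receptors the 95% intervals at 5 and 50 MPa stayed between −0.80 and 0.36, and for Fgf10 between −0.65 and 0.72. Between 50 and 5 MPa 0% of all genes were called (162 or 0.761% at an unadjusted p under 0.05 and 0 by DESeq2), and no member had an unadjusted p under 0.05. The groups of every FGF gene overlapped in all 3 metatarsal comparisons, where 2.88%, 4.49% and 2.42% of all genes did not overlap.

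**Figure D5:**
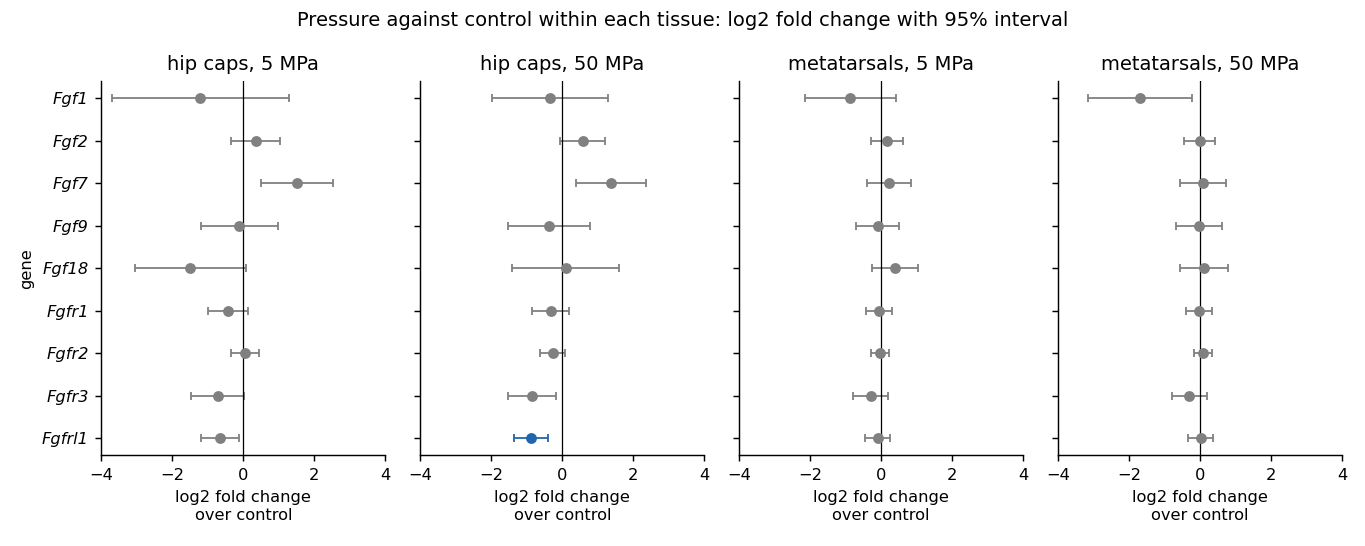
Log2 fold change of each FGF gene except Fgf10 at 5 and 50 MPa over control, in hip caps and in metatarsals, with points for the edgeR estimate and bars for its 95% interval. The blue point is Fgfrl1 in hip caps at 50 MPa, the only called gene shown, and grey points were not called. Fgf10 is not drawn because its hip cap controls had 0 counts.

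The difference between the tissues in the response was tested as an interaction. At 5 MPa none of the 10 genes was called, where 0.0188% of all genes were, and 3 of 10 had an unadjusted p under 0.05 against 11.2% of all genes. At 50 MPa none was called, where 0.132% of all genes were, and again 3 of 10 had an unadjusted p under 0.05 against 18.3% of all genes. Those at 50 MPa were Fgf10 (adjusted p = 0.0574), Fgfrl1, at −0.89 (SE 0.26, adjusted p = 0.0884), and Fgf7, at 1.29 (SE 0.50, adjusted p = 0.173). DESeq2 called Fgf10 and Fgfrl1 at 50 MPa and no member at 5 MPa. A response of these genes that differs between hip caps and metatarsals was therefore not shown by the main test.

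The rest of the pathway was counted over 89 genes in 9 lists, of which 83 were tested, and Fgf3, Fgf4, Fgf16, Fgf20, Fgf22 and Klb did not pass the filter. In hip caps against metatarsals 16 were higher and 33 lower in controls, 24 higher and 30 lower at 5 MPa, and 16 higher and 22 lower at 50 MPa. Of all tested genes 14.1% were higher and 15.9% lower in controls, 18.8% and 19.1% at 5 MPa, and 10.2% and 9.57% at 50 MPa. Their median log2 fold change was −0.64, −0.25 and −0.25, against −0.08, −0.08 and −0.01 over all genes. With library sizes alone the split became 4 higher and 52 lower in controls, 8 and 47 at 5 MPa, and 2 and 37 at 50 MPa. Without metatarsal control replicate 1 it was 7 and 18 in controls, and without metatarsal 50 MPa replicate 4 it was 4 and 8 at 50 MPa.

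Extracellular partners of the ligands moved both ways. Of 14 proteoglycans and carriers, which hold FGFs in the matrix or at the cell surface, 6 were higher and 4 lower in hip cap controls, 6 and 6 at 5 MPa, and 6 and 4 at 50 MPa, where 29.9%, 37.9% and 19.7% of all genes were called at 0, 5 and 50 MPa. The syndecans Sdc4 (log2 fold change 2.11, 1.99 and 2.13 at 0, 5 and 50 MPa) and Sdc3 (2.00, 2.01 and 1.82) were higher, and Gpc3, a glypican of embryonic tissues, was lower (−6.44, −6.69 and −5.85). Of 9 enzymes that build or trim heparan sulfate, 1 was higher and 5 lower in controls, 3 and 4 at 5 MPa, and 1 and 4 at 50 MPa. Sulf2, a sulfatase that removes sulfate from heparan sulfate outside the cell, was lower (−4.28, −3.97 and −4.28), as was the sulfotransferase Hs6st2 (−3.29, −2.38 and −2.09). Ext2, which elongates the heparan sulfate chain, was higher at 1.42, 0.98 and 0.58, with −0.39 at 50 MPa under library sizes alone.

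A list of feedback regulators held Sprouty, Spred and dual-specificity phosphatase genes, whose products limit FGF signalling, and Flrt2 and Flrt3, whose products bind FGF receptors and are known to promote it. Of the 13 genes 8 were lower and none higher in hip cap controls, 5 lower and 2 higher at 5 MPa, and 4 lower and 1 higher at 50 MPa, where 15.9%, 19.1% and 9.57% of all genes were lower. Flrt2 (−3.67, −3.22 and −3.02) and Flrt3 (−3.07, −2.55 and −2.76) were lower at each pressure. Dusp4, a phosphatase of MAP kinases, was higher at 5 MPa (1.47) and at 50 MPa (1.83). Of 11 response genes 3 were higher and 5 lower in controls, 5 and 3 at 5 MPa, and 1 and 2 at 50 MPa, and the members moved unequally: Egr1 was lower in controls (−2.83) and at 5 MPa (−1.30), whereas Phlda1 was higher in both (1.41 and 1.24).

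Of 19 genes of the signal relay 4 were higher and 5 lower in hip cap controls, 6 and 3 at 5 MPa, and 5 and 2 at 50 MPa, where 29.9%, 37.9% and 19.7% of all genes were called. Of 4 genes of the natriuretic peptide system, which counters FGFR3 signalling in the growth plate, 2 were higher and 1 lower in controls, 2 and 2 at 5 MPa, and 2 and 1 at 50 MPa. Prkg2, the cyclic GMP-dependent kinase of that system, was higher at 5.64, 4.70 and 5.20, and the receptor gene Npr2 at 1.30, 1.25 and 0.93. All 4 intracellular FGF homologues, which are not secreted, were lower in hip caps at each pressure, among them Fgf11 (−3.30, −3.28 and −2.66). Of all genes 15.9%, 19.1% and 9.57% were lower at 0, 5 and 50 MPa. One of the 4, Fgf14, had at most 3 counts in a hip cap library and 19 in a metatarsal library. Fgfr4, the remaining kinase receptor, was lower too (−1.86, −2.78 and −2.60). Of 7 tested secreted ligands other than the 6 described, 2 were called, both lower at 5 MPa.

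Under pressure, pathway genes were called only in hip caps at 50 MPa against control, 3 higher and 3 lower, against 5.17% of all genes. The higher ones were in the signal relay, among them Rps6ka3 (log2 fold change 1.43, SE 0.31, adjusted p = 0.0195) and Sos1 (0.92, SE 0.23, adjusted p = 0.0308). The 3 lower were Hspg2, which encodes the FGF-binding proteoglycan perlecan (−1.08, SE 0.25, adjusted p = 0.0215), Myc (−1.07, SE 0.28, adjusted p = 0.0329) and Ext2 (−0.73, SE 0.16, adjusted p = 0.0193). None of the 6 was called with all 24 libraries, with library sizes alone, in a fit of each tissue alone or without hip cap control replicate 3, while 1 pathway gene was called without metatarsal control replicate 1 or metatarsal 50 MPa replicate 4 and 2 without hip cap 50 MPa replicate 3. As many as 7 higher were called without hip cap control replicate 2, 6 higher and 5 lower without hip cap 50 MPa replicate 4, 5 higher without hip cap control replicate 1 or hip cap 5 MPa replicate 3, and DESeq2 called 11 higher and 3 lower. Over the fits that left out 1 library, 1 to 2437 of all genes were called in this comparison. In the other comparisons of pressures and both interactions 0 of the 83 were called by edgeR.

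Genes whose log2 CPM ran most like that of an FGF gene over the 22 libraries were sought among 10923 named genes, as a description. For Fgfr3 they were Acan, which encodes aggrecan (Pearson r = 0.996), Ncmap (0.995) and Slc38a3 (0.993), and for Fgfrl1 Vill (0.974), Col11a2 (0.974) and Col9a3 (0.971), the last 2 of which encode cartilage collagens. For Fgfr1 they were Ncoa3 (0.991), Furin (0.989) and Osbpl5 (0.989). For Fgf10 they were Vcan (0.980), Eln (0.978) and Flrt2 (0.976), and for Fgf18 Hoxd12 (0.981), Hoxd11 (0.977) and Trpm5 (0.976). These values rest largely on the difference between the tissues, which all libraries share. Within a tissue, r with Acan for Fgfr3 was 0.959 over 10 hip cap libraries and 0.863 over 12 metatarsal libraries, whereas r with Vcan for Fgf10 was 0.833 and −0.41, and r with Hoxd12 for Fgf18 was 0.815 and −0.08. Fgfr2 had no close match, its highest r being 0.831 with Flt3l.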

How the data were processed

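Per the labels and the study's methods, the authors trimmed reads with Trim Galore 0.6.5, ran kallisto on transcripts and totalled its estimates by gene. The deposited values are estimated counts, which were rounded to whole numbers here. The submitters' processing notes name GRCm39; symbols, biotypes and lengths came from GENCODE M21 (GRCm38), which named 48897 of 52178 genes, and no coordinates of the files were used. The labels write mPa where the methods write MPa.

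Genes were tested with edgeR 4.0.16 in R 4.3.3 (filterByExpr, TMM, robust quasi-likelihood fit, Benjamini-Hochberg adjustment) on 22 libraries, with group, sequencing run and library type as terms, after the study's own design. Run was read from a coloured strip in a picture of the study, which gave 9 libraries in run 1 and 15 in run 2, a split that differs from the methods, so the run term is uncertain. Alternatives were DESeq2 1.42.0, other batch terms, scalings and filters, all 24 libraries, a replicate block and leaving out each library. Replicate numbers did not pair libraries (residual correlations −0.288 to 0.171 over 50 pairs), and the labels give no shared source.

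The log2 ratio of Fgfr3 to Fgfr1 used a pseudocount of 0.5 and an exact permutation test. Member counts ran from 2459 to 25544 per library, and the floor was 3 counts per library, which covers counting error only. Fgf10 and Fgf18 in hip caps are therefore measured with low precision. Pathway genes were named as the 2 highest and 2 lowest called genes of a list with a mean of at least 1 CPM, or fewer, and some of these are not reported here. Genes most like a member had a mean of at least 5 CPM. The members, lists and tests were chosen with earlier results of these data known. Scripts were tested on simulated data.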

Additional observations from a re-analysis of the deposited data

Results flagged for a closer look

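In 5 of 40 sets of 4 libraries 1 library lay far from the other 3, by a gap test that chance passes in about 1 in 20 sets. These were Fgf7 in hip cap 5 MPa replicate 3, at 31.6 CPM, Fgf1 in hip cap 5 MPa replicate 1, at 5.17 CPM, and Fgf1 in metatarsal control replicate 2, at 2.30 CPM. The others were Fgfr3 in metatarsal control replicate 3, at 59.8 CPM, and Fgf18 in metatarsal 50 MPa replicate 1, which was low at 4.69 CPM.

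Of the levels of the 6 ligands in the 2 libraries that the study left out, 5 exceeded those of every hip cap library used, on a scale computed over all 24 libraries, and the others did not. Fgf2, at 4.98 CPM in hip cap control replicate 4, was below every hip cap library used. In hip cap control replicate 4, Fgf7 stood at 49.4 CPM (725 counts), against 5.53 to 9.71 CPM in the other controls and 30.6 CPM in the highest hip cap library used. Fgf1 stood at 8.73 CPM (128 counts) in the same library, against 1.05 to 5.35 CPM in the other controls. In hip cap 50 MPa replicate 2, Fgf9 stood at 29.4 CPM (194 counts), which was 6.97 times the highest hip cap library used. Fgf10 stood there at 6.21 CPM (41 counts), with 0 in the controls used and 1.81 CPM in the highest hip cap library used, and Fgf18 at 3.48 CPM (23 counts), with 1.05 CPM in the highest. On the same scale the summed chondrocyte markers were 13842 CPM in that library and 9189 CPM in hip cap control replicate 4, and the summed muscle markers were 115 CPM and 52.7 CPM. The summed osteoclast markers were 108 CPM and 2038 CPM, macrophage markers 82.2 CPM and 749 CPM, and osteoblast markers 620 CPM and 4056 CPM in the same order. The part of these in the ligand levels was not tested.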

How the results depend on the processing

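For single genes among the 10, 1248 alternative values were counted, which cover all comparisons between the tissues. For pressures and interactions they cover only pairs of gene and comparison called in the main fit or an alternative other than leaving out a library. The remaining pairs were not counted. Of the 1248 values, 1150 kept their direction and their side of the threshold, 59 lost the call, 21 gained it, and 18 changed sign. With a minimum of 10 counts in every library, which left 4 members untested, the counts of called members were 4, 4 and 3 between the tissues at 0, 5 and 50 MPa and 1 in hip caps at 50 MPa. With all 24 libraries they were 2 between the tissues at 50 MPa and 0 in hip caps at 50 MPa. In hip caps at 5 MPa DESeq2 called 1 member, the fit without batch terms 3 and that with library type only 2. In hip caps at 50 MPa the fits without batch terms and with library type only called 1 each, and those with library sizes alone and of each tissue alone 0. Between 50 and 5 MPa in hip caps the fit without batch terms called 1 (Fgfr2, −0.46). For the interaction at 50 MPa DESeq2 called 2 and the fit without a filter 1. The shares of all genes called in these alternative fits are not given here. The receptor ratio differed by 1.46, 1.71 and 1.80 at 0, 5 and 50 MPa with all 24 libraries, and the adjusted p of the last 2 was then 0.0429.

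Leaving out 1 library at a time gave 6 to 8 called members between the tissues at 0 MPa, 8 to 8 at 5 MPa and 2 to 8 at 50 MPa. Of all genes, 2571 to 7145, 6922 to 8938 and 1058 to 4700 were called in those fits. The same fits gave 0 to 0 called members in hip caps at 5 MPa, 0 to 4 at 50 MPa, 0 to 0 between 50 and 5 MPa, 0 to 0 in each metatarsal comparison, 0 to 0 for the interaction at 5 MPa and 0 to 2 at 50 MPa. The 4 members came without hip cap 5 MPa replicate 3 or hip cap 50 MPa replicate 4. Over all genes the calls were 1 to 1265 in hip caps at 5 MPa, 1 to 2437 at 50 MPa and 0 to 3 between 50 and 5 MPa. They were 0 to 0 in each metatarsal comparison, 0 to 578 for the interaction at 5 MPa and 0 to 1576 at 50 MPa. The ratio difference ranged from 1.75 to 2.06, from 1.63 to 1.88 and from 1.55 to 1.86.

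The changes of sign listed first are those of the member pairs counted above and of the named pathway genes. Values changed sign with library sizes alone for Fgf7 between the tissues at 5 MPa (−0.14) and 50 MPa (−0.32), Fgfrl1 at 50 MPa (−0.15), Cbl at 5 MPa (−0.30), Ext2 at 50 MPa (−0.39) and Mapk3 at 50 MPa (−0.042). That scaling moved the median of all genes by −0.88, −0.62 and −0.89 between the tissues at 0, 5 and 50 MPa. With all 24 libraries the sign changed for Fgf7 between the tissues at 0 MPa (0.79), Fgf9 at 50 MPa (1.53), and Fgf7 (−0.43) and Fgfrl1 (0.10) in hip caps at 5 MPa. Fgfr2 between the tissues at 5 MPa was 0.019 in stranded libraries of run 2 and ranged from −0.062 to 0.059 as each library was left out, above 0 in 10 of those fits. The cause was not tested. Member pairs outside that count, none of them called in the main fit, changed sign too. In hip caps against control these included, with all 24 libraries, Fgfr1 (0.157) and Fgfr3 (0.422) at 5 MPa and Fgf9 (2.59) at 50 MPa. With library sizes alone they included Fgfr1 (0.10) and Fgf9 (0.44) at 5 MPa. With the replicate number as a block, 7, 8 and 7 members were called between the tissues at 0, 5 and 50 MPa and 2 in hip caps at 50 MPa, with Fgf1 in controls at an adjusted p of 0.064. Among the hip caps used, run cannot be told apart from group in either comparison with 5 MPa, nor can library type in that of 50 with 5 MPa.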
